A study of Mus musculus with 18 samples.

Results

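Genes that make, break down and read out cyclic AMP were followed in 10T1/2 cells, a mouse mesenchymal line (written CH310T1/2 in the sample labels). The members were all protein-coding genes of the deposited table whose symbols name a phosphodiesterase (Pde), an adenylyl cyclase (Adcy), a catalytic or regulatory subunit of protein kinase A (Prkac, Prkar) or an A-kinase anchoring protein (Akap), 56 of the 54532 genes listed. They comprised 24 phosphodiesterases, 10 adenylyl cyclases, 6 protein kinase A subunits and 16 anchoring proteins. The cells were wild type (WT) or one of a pair of FOXS1 knockout (KO) lines, clone 1 and clone 2, each expanded from a single CRISPR-Cas9 edited cell. By the study's methods, cells for adipogenic differentiation were grown to 2 days past confluence before induction. The confluence of uninduced cells is not stated. Each genotype was sequenced uninduced, and again after 1 nM TGF-β1 for 12 h followed by 48 h of the adipogenic mix DMII (dexamethasone, 3-isobutyl-1-methylxanthine or IBMX, insulin and indomethacin), here called stimulated, with 3 libraries in each of the 6 groups. No group received TGF-β1 or DMII alone, so their effects cannot be told apart, and each KO genotype is 1 clone. The study's methods also give overnight serum starvation before TGF-β1, and DMII in DMEM/Ham's F-12 in place of the DMEM growth medium. Serum and medium of the uninduced cells are not stated, so such changes cannot be told apart from the stimulation either. Nothing in the labels says that the libraries of a group came from separate cultures, so p-values measure the spread between these libraries.

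Cyclic AMP (cAMP) is made from ATP by adenylyl cyclases, most of which sit in the plasma membrane under the control of G protein-coupled receptors. It releases the catalytic subunits of protein kinase A (PKA) from their regulatory subunits, which anchoring proteins hold at particular places in the cell, and it is removed by phosphodiesterases (PDEs). In preadipocytes a rise in cAMP, usually brought about with the broad PDE inhibitor IBMX, is a standard part of the inducing mix, and cAMP also counters the contractile programme of myofibroblasts. PDE8 and PDE9 enzymes are known to be relatively insensitive to IBMX.

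Sequencing depth was 15576685 to 42005596 counts per library, of which the 56 members together took 0.178% to 0.213%. *Foxs1*, the targeted gene, was counted at 1.64 to 3.25 CPM (counts relative to library totals scaled by TMM) in the 6 libraries labelled WT and at 21.1 to 56.8 CPM in the 12 labelled FOXS1 KO. The RNA level of the targeted gene was thus higher, not lower, in the libraries labelled KO. By the study's methods the clones were checked by sequencing the edited locus and by western blot for the protein, neither of which was analysed here. WT, clone 1 and clone 2 stand throughout for libraries labelled so, and every direction between genotypes rests on those labels. The 9 mesenchymal markers such as *Col1a1* and *Vim* summed to 34010 to 79246 CPM, whereas 3 markers each of leukocytes, endothelial, epithelial and photoreceptor cells summed to at most 1.45, 1.63, 3.41 and 0.641 CPM. Of the 9, 1 was higher and 2 lower than WT in stimulated clone 1, and 1 higher and 3 lower in stimulated clone 2. These stand beside 9.42% and 9.60% of all genes in clone 1 and 7.95% and 8.94% in clone 2. *Thy1* was at most at 0.870 CPM in clone 2, against 45.9 to 60.9 CPM in WT and 155 to 192 CPM in clone 1. *Lum* was at most at 0.728 CPM in stimulated clones, against 9.20 to 11.3 CPM in stimulated WT cells. Of 6 adipocyte markers, *Adipoq*, *Fabp4*, *Plin1*, *Lep*, *Cidec* and *Cfd*, 1 had no count in any library. Their sum was 0.293 to 1.22 CPM in stimulated WT cells, 30.5 to 43.0 CPM in stimulated clone 1 and 2.71 to 4.64 CPM in stimulated clone 2, and of the 4 tested ones 4 and 2 were higher than WT in the stimulated clones 1 and 2. The 4 myofibroblast markers *Acta2*, *Postn*, *Tagln* and *Cnn1* summed to 3042 to 3217 CPM in stimulated WT cells, 846 to 902 CPM in stimulated clone 1 and 683 to 794 CPM in stimulated clone 2. Nearly all of this was *Acta2* and *Postn*. *Tagln* and *Cnn1* were at most at 0.891 and 1.46 CPM in any library, and 67.9% of the exonic bases of *Tagln* lie under other genes. The part of these marker differences in the results below was not tested, and in bulk RNA fewer cells of a type and less RNA per cell cannot be told apart.

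The start regions of the members were taken from RefSeq (GRCm38.p6; 250 bases before and 50 bases after an annotated start), where 45 of the 56 members had 87 such regions. They were searched on both strands for the full cAMP response element TGACGTCA, its core TGACG, which every full element also contains, and the forkhead motif TGTTTAC. The full element was in 2 of the 87 regions (2.30%), a pair of overlapping starts of *Prkar1a*, against 1.79% of the 32851 regions of all genes. The core was in 18 of the 87 (20.7%) against 20.8% of all, and the forkhead motif in 5 (5.75%; *Akap14*, *Akap6*, *Pde1b*, *Pde1c* and *Pde4c*) against 3.65%. A match is a stretch of letters and says nothing of binding. The first listed start regions of 5 members are shown because these genes responded differently to stimulation in both KO clones than in WT, as described further on. Capitals mark the core on either strand (TGACG, or CGTCA where it lies on the other strand).
Pde4b: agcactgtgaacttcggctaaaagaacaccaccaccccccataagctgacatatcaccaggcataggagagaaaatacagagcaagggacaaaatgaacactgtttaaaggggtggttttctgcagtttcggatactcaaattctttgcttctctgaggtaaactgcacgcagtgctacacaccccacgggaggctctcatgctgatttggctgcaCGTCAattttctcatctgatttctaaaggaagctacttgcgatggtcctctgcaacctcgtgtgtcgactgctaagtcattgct
Adcy9: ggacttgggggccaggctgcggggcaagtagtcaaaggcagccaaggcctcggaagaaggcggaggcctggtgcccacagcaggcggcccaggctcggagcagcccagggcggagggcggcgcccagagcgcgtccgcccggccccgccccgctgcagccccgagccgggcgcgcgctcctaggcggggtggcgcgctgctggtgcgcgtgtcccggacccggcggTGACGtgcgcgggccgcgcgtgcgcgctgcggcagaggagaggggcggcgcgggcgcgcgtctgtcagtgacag
Adcy7: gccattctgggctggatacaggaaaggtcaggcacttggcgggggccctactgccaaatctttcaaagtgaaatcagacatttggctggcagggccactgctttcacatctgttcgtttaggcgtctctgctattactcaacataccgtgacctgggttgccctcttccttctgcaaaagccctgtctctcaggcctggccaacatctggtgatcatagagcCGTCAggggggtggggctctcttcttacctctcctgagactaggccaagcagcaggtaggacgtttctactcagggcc
Prkar2b: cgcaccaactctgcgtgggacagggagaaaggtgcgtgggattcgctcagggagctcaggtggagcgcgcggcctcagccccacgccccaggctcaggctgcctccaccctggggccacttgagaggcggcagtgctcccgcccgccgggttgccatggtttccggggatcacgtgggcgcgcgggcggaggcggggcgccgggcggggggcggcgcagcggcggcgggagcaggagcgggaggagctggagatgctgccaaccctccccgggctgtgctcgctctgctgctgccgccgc
Pde8b: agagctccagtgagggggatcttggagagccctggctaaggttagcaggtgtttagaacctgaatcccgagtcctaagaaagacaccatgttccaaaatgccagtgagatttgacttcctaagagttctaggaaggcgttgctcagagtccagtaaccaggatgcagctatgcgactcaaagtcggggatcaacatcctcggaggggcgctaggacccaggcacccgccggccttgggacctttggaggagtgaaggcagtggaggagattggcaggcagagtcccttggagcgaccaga
The *Pde4b* region is chr4:102421305-102421604 on the plus strand, the *Adcy9* region chr16:4420449-4420748 on the minus strand and the *Adcy7* region chr8:88282742-88283041 on the plus strand. The *Prkar2b* region is chr12:32061228-32061527 on the minus strand and the *Pde8b* region chr13:95250287-95250586 on the minus strand, and neither holds the core. A further start region of *Pde8b*, not shown, does hold the core, and none of *Prkar2b* does. All but *Adcy9* have further annotated starts, and counts per gene do not show which start was used. *Akap12*, which also responded differently in both clones, had no entry in the table of start regions. Likewise without one were *Pde3a*, *Pde3b*, *Pde6a*, *Pde6c*, *Pde6g*, *Pde7a*, *Pde9a*, *Adcy6*, *Adcy8* and *Akap2*.

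Of the 56 members, 37 passed the filter on low counts, 15 phosphodiesterases, 5 cyclases, all 6 PKA subunits and 11 anchoring proteins. The filter required about 0.496 CPM in at least 3 libraries, and 25 of the 37 were above that level in every group. The other 12, 9 of them phosphodiesterases, passed through the groups in which they were high. *Pde1c* passed through clone 1 alone, *Pde3a*, *Pde3b* and *Pde7b* through WT cells alone, and *Adcy1* through uninduced WT and clone 2 cells. The other 7 were *Pde4a*, *Pde8a*, *Pde8b*, *Pde9a*, *Pde10a*, *Adcy3* and *Prkar1b*. Such members had to differ between groups, so counts of called members below are descriptions of these 37 and not of the families.

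**Figure D1:**
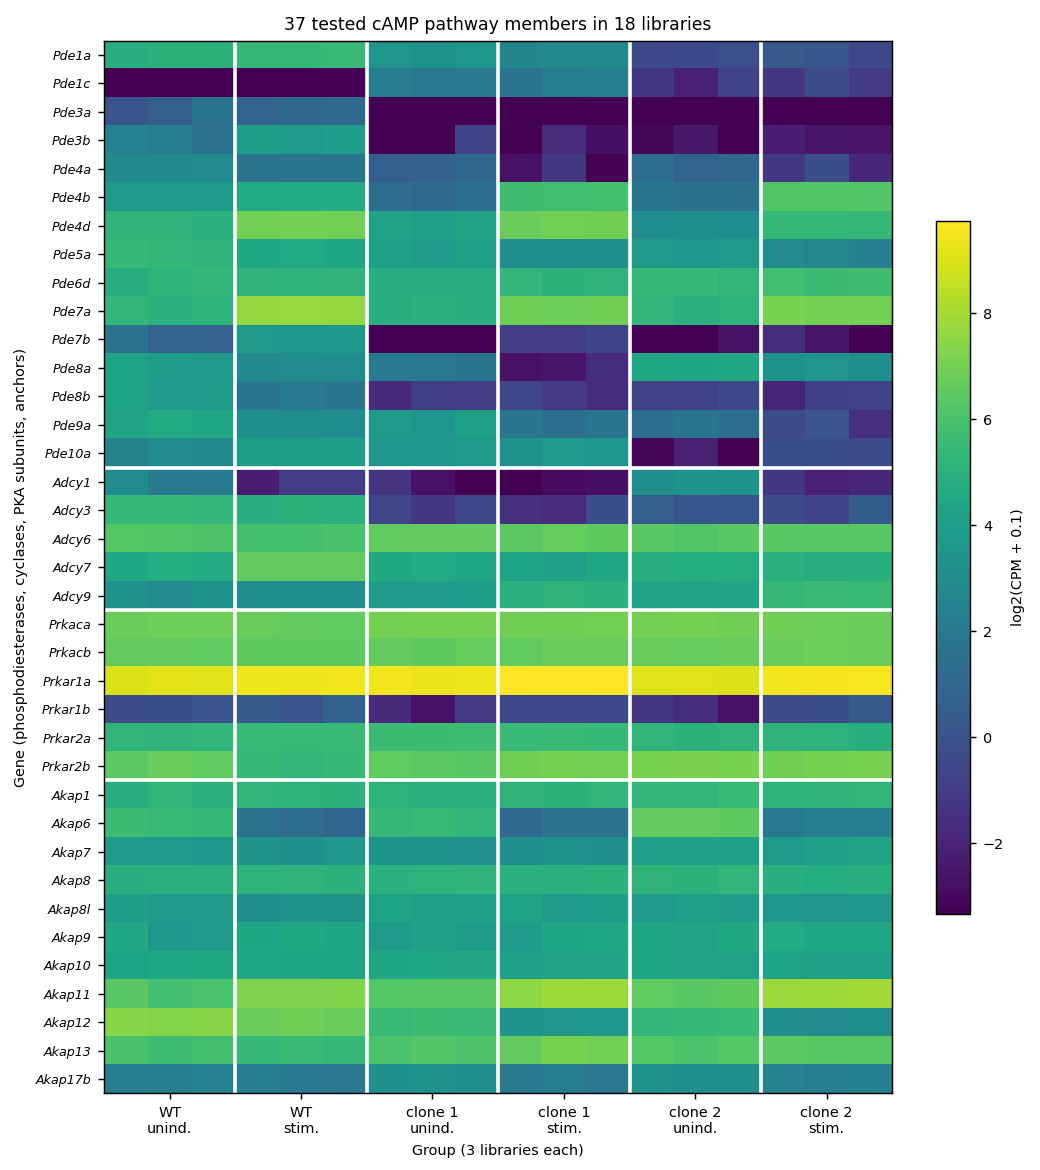
Level of the 37 tested members (rows, by role) in each of the 18 libraries (columns, 3 per group), as log2(CPM + 0.1) on a colour scale. *Prkar1a* is the brightest row in every library, and *Pde1c* is dark in WT while *Pde3a* is dark in the clones.

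The level per length of gene, in FPKM (CPM divided by the length of the gene in kilobases), orders the members within a role. PKA RNA was dominated by *Prkar1a*, the type I alpha regulatory subunit, at 129 ± 8.12 FPKM (SD, n = 3) in uninduced WT cells, followed by the main catalytic subunit *Prkaca* at 45.3 ± 1.52 FPKM. *Prkar2b*, a type II regulatory subunit prominent in fat cells, came next at 26.6 ± 2.85 FPKM, and the catalytic *Prkacb* was at 11.1 ± 0.209 FPKM. *Adcy6*, a calcium-inhibited cyclase, was the most abundant cyclase in uninduced WT cells at 10.8 ± 0.817 FPKM, ahead of *Adcy3* at 6.66 ± 0.244 FPKM. Among phosphodiesterases *Pde6d* stood highest in uninduced WT cells at 15.4 ± 2.39 FPKM, but its product is a chaperone for prenylated proteins and no enzyme. The cGMP-specific *Pde9a* followed at 8.03 ± 1.09 FPKM and the calmodulin-activated *Pde1a* at 5.40 ± 0.370 FPKM. *Akap12*, a scaffold also known as gravin, led the anchoring proteins at 26.0 ± 1.38 FPKM, ahead of the mitochondrial *Akap1* at 7.56 ± 0.986 FPKM. The nuclear *Akap8* was at 8.28 ± 0.443 FPKM with the gene length of the deposited table but at 3.53 ± 0.189 FPKM with its exonic bases in GENCODE, below *Akap1*, and *Pde9a* would be at 6.43 ± 0.871 FPKM by that length, in the same place. These orders were not the same in every group. In stimulated WT cells the cAMP-specific *Pde7a* was the highest phosphodiesterase at 26.9 ± 0.610 FPKM and *Adcy7* the highest cyclase at 14.6 ± 0.0587 FPKM, whereas *Pde6d* and *Adcy6* held those places in both stimulated clones. In stimulated clones *Akap11*, which binds PKA and glycogen synthase kinase, was the highest anchoring protein at 19.2 ± 2.16 FPKM in clone 1 and 20.9 ± 0.912 FPKM in clone 2.

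The summed RNA of the 24 phosphodiesterases was 262 to 272 CPM in uninduced WT cells and 526 to 539 CPM after stimulation. It was 138 to 151 and 349 to 373 CPM in clone 1, and 125 to 137 and 317 to 332 CPM in clone 2. Libraries of the clones lay below WT libraries of the same treatment, and stimulated above uninduced libraries in each genotype, without overlap. PKA subunits summed to 946 to 973 CPM in stimulated WT cells, 1239 to 1255 CPM in stimulated clone 1 and 1123 to 1176 CPM in stimulated clone 2.

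Which members responded to TGF-β1 + DMII was asked first, within each genotype. A gene was called a DEG at an adjusted p below 0.05 with an absolute log2 fold change above 1 (edgeR quasi-likelihood test, Benjamini-Hochberg over 14317 genes). In WT cells 13 of the 37 members were DEGs, 7 higher and 6 lower in stimulated cells, beside 19.9% of all genes tested (6.25% higher, 13.6% lower). The clones had 13 DEGs in clone 1 (7 higher, 6 lower; background 16.7%, 5.95% higher and 10.7% lower) and 14 in clone 2 (7 higher, 7 lower; background 17.7%, 6.46% higher and 11.2% lower). On adjusted p alone, with no fold threshold, 28, 22 and 20 members passed in WT, clone 1 and clone 2, beside 60.7%, 54.5% and 55.8% of all genes. The median log2 response of the 37 was -0.02 in WT, -0.06 in clone 1 and 0.00 in clone 2, beside -0.04, -0.02 and -0.02 over all genes. *Pde4d*, *Pde7a* and *Akap11* rose in all 3 genotypes, beside 2.21% of all genes, and *Pde4a*, *Pde9a* and *Akap6* fell in all 3, beside 5.70%.

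*Pde7a* encodes a high-affinity cAMP-specific phosphodiesterase. It stood at 39.6, 32.0 and 34.8 CPM in uninduced and 204, 214 and 207 CPM in stimulated WT libraries. In clone 1 it went from 30.5, 32.9 and 30.7 to 118, 116 and 119 CPM and in clone 2 from 40.1, 32.1 and 34.7 to 139, 129.5 and 131 CPM. Stimulated libraries were above all uninduced ones, and those of WT were the highest. The log2 responses were 2.56 ± 0.0707 (SE; adjusted p = 4.41e-23) in WT, 1.91 ± 0.0716 (SE; adjusted p = 7.87e-20) in clone 1 and 1.89 ± 0.0698 (SE; adjusted p = 4.68e-20) in clone 2. Against WT the difference in response was -0.65 (adjusted p = 4.7e-06) for clone 1 and -0.67 (adjusted p = 2.54e-06) for clone 2, under the fold threshold.

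*Pde4d*, a member of the PDE4 family that hydrolyses only cAMP and is phosphorylated by PKA, was at 35.9, 36.6 and 32.1 CPM in uninduced and 127, 128 and 127 CPM in stimulated WT libraries. Clone 1 had 18.5, 16.7 and 19.7 CPM and then 106, 124 and 121 CPM. Clone 2 had 7.96, 8.37 and 8.12 CPM and then 40.8, 41.8 and 41.8 CPM. The gene rose in each genotype without overlap, by 1.87 ± 0.0685 (SE; adjusted p = 4.25e-20) on the log2 scale in WT, 2.68 ± 0.0733 (SE; adjusted p = 4.05e-23) in clone 1 and 2.35 ± 0.0813 (SE; adjusted p = 9.47e-21) in clone 2. Clone 2 stayed below both other genotypes in either treatment. Its log2 fold change against WT was -2.10 (adjusted p = 2.85e-19) uninduced and -1.62 (adjusted p = 1.55e-18) stimulated, while clone 1 was at -0.93 (adjusted p = 1.38e-11) and -0.12 (adjusted p = 0.118). The 7 tested neighbours of *Pde4d* within 500 kb ranged from -1.31 to -0.07 in uninduced clone 2 against WT, with a median of -0.60. Their median was -0.48 in stimulated clone 2, and 0.07 uninduced and -0.26 stimulated in clone 1. The part of this in the *Pde4d* values was not tested.

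*Pde4b*, the other abundant PDE4 gene, had the largest upward difference in response among the called members, in both clones. The gene is ENSMUSG00000028525, mm10 chromosome 4, 102087543 to 102607259, plus strand. Uninduced libraries held 13.2, 13.8 and 13.6 CPM in WT, 2.41, 2.15 and 2.64 CPM in clone 1 and 3.28, 2.97 and 2.78 CPM in clone 2. Stimulated libraries held 24.9, 26.1 and 26.5 CPM in WT, 53.3, 55.8 and 59.7 CPM in clone 1 and 74.5, 74.1 and 74.6 CPM in clone 2. The clones were thus below WT before stimulation and above it afterwards, with no overlap either way. The log2 response was 0.93 ± 0.0828 (SE; adjusted p = 4.9e-11) in WT, under the fold threshold, 4.55 ± 0.103 (SE; adjusted p = 4.37e-25) in clone 1 and 4.60 ± 0.0959 (SE; adjusted p = 3.68e-26) in clone 2. Their difference in response against WT was 3.62 ± 0.136 (SE; adjusted p = 5.92e-19) in clone 1 and 3.67 ± 0.127 (SE; adjusted p = 1.37e-19) in clone 2. Against WT the clones were at -2.49 (adjusted p = 1.35e-17) and -2.14 (adjusted p = 4.18e-17) uninduced and at 1.12 (adjusted p = 1.25e-13) and 1.52 (adjusted p = 1.11e-16) stimulated. The WT libraries are shared by both clones' comparisons. Of the 2 tested neighbours of *Pde4b* within 500 kb, 1 was a DEG, *Wdr78*, lower in both uninduced clones and in stimulated clone 1. The median log2 fold change of the 2 against WT was -0.91 in uninduced clone 1 and -0.92 in uninduced clone 2.

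**Figure D2:**
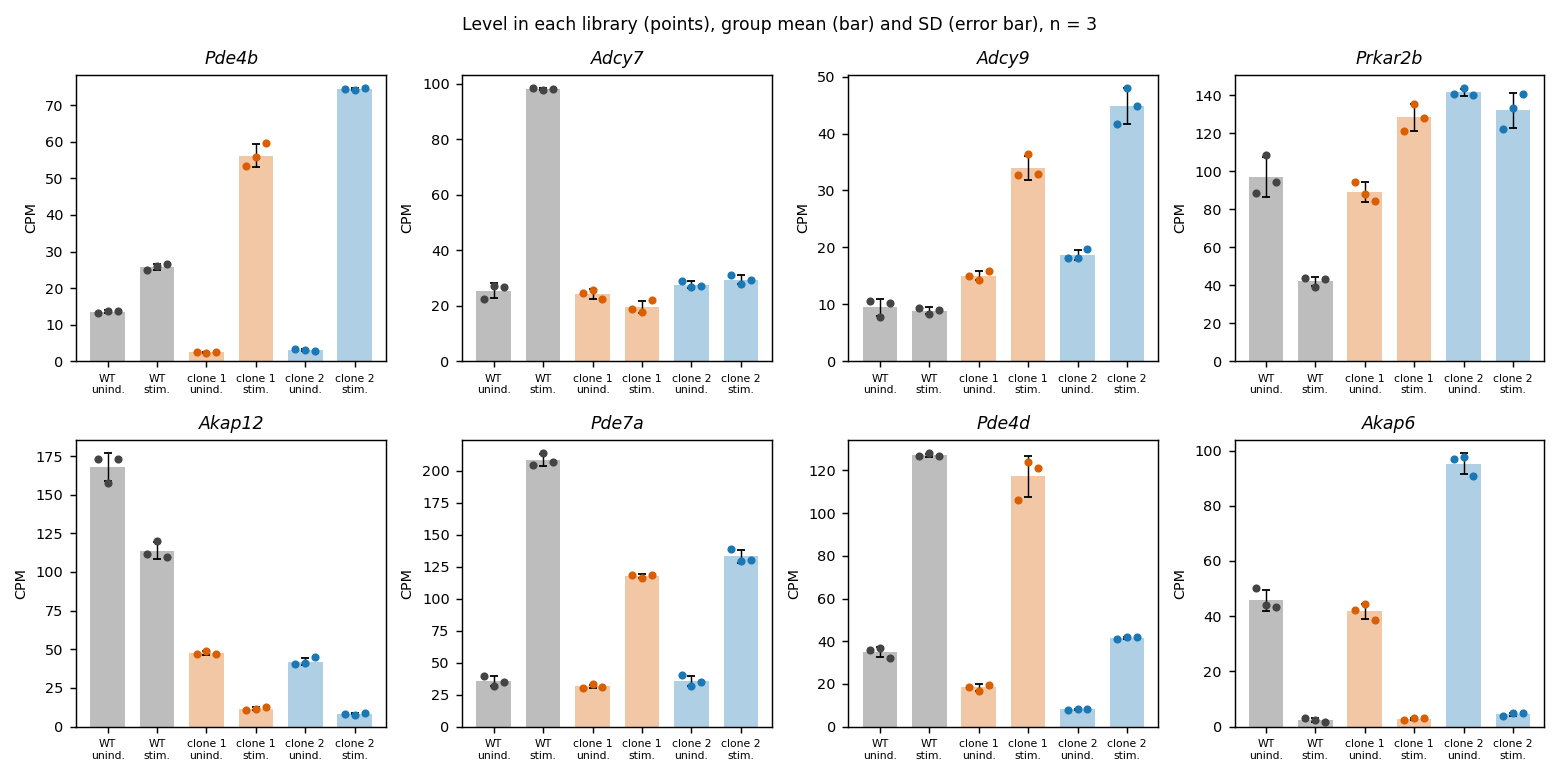
CPM of 8 members in each library (points), with the group mean (bar) and SD (error bar, n = 3); each axis starts at 0 and grey, orange and blue mark WT, clone 1 and clone 2. *Pde4b* and *Adcy9* are highest in stimulated clones, *Adcy7* in stimulated WT cells.

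The third PDE4 gene, *Pde4a*, was lower throughout. It was at 7.51, 7.29 and 7.66 CPM in uninduced and 3.13, 3.33 and 3.29 CPM in stimulated WT libraries, at 1.38, 1.50 and 2.02 CPM uninduced and 0.0532, 0.332 and 0 CPM stimulated in clone 1, and at 2.54, 1.68 and 1.86 CPM uninduced and 0.336, 0.785 and 0.180 CPM stimulated in clone 2. It fell on stimulation in all genotypes, with responses of -1.20 (adjusted p = 0.00101), -3.44 (adjusted p = 1.14e-06) and -2.27 (adjusted p = 4.47e-05) on the log2 scale in WT, clone 1 and clone 2, and every clone library was below every WT library of the same treatment. The fall was larger in clone 1 than in WT, with a difference of -2.24 (adjusted p = 0.00539), and in clone 2 the difference was -1.07 (adjusted p = 0.14).

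Of the IBMX-insensitive PDE8 pair, which are high-affinity cAMP-specific enzymes, *Pde8a* set clone 1 apart. It was at 19.0, 14.7 and 12.8 CPM in uninduced and 7.58, 7.82 and 7.89 CPM in stimulated WT libraries and at 22.0, 21.5 and 21.8 CPM uninduced and 10.5, 11.1 and 9.14 CPM stimulated in clone 2. In clone 1 it was at 4.15, 3.75 and 3.16 CPM and, stimulated, at 0.0532, 0.0737 and 0.228 CPM. Clone 1 libraries were below all others of the same treatment, with a log2 fold change against clone 2 of -2.56 ± 0.156 (SE; adjusted p = 4.36e-14) uninduced and -6.37 ± 0.285 (SE; adjusted p = 2.84e-17) stimulated. Compared with WT, the difference in response was -3.91 (adjusted p = 2.71e-09) in clone 1 and -0.10 (adjusted p = 0.783) in clone 2. Of the 13 tested neighbours within 500 kb of *Pde8a*, none was a DEG between uninduced clone 1 and WT and 1, *Cpeb1*, was higher in stimulated clone 1. In uninduced clone 1 they ranged from -0.61 to 0.50 on the log2 scale.

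*Pde8b* was low in both clones. WT libraries held 19.1, 12.7 and 14.7 CPM uninduced and 3.42, 4.19 and 3.43 CPM stimulated, and no library of either clone passed 0.638 CPM. The gene fell on stimulation in WT, with a log2 response of -2.07 ± 0.230 (SE; adjusted p = 5.11e-09), while the clones, already near the filter level, were at 0.14 (adjusted p = 0.824) and -0.53 (adjusted p = 0.323). Against WT it was -5.45 (adjusted p = 5.11e-15) in uninduced clone 1 and -4.87 (adjusted p = 6.78e-15) in uninduced clone 2. The difference in response, 2.21 (adjusted p = 0.00124) in clone 1 and 1.54 (adjusted p = 0.0233) in clone 2, sets a fall in WT beside low levels in the clones. In clone 2 it lost its call when any of 3 clone 2 libraries, uninduced replicate 1 or stimulated replicate 2 or 3, was left out (adjusted p 0.00754 to 0.135 over the alternatives). The neighbouring *Iqgap2* was also a DEG, lower in both uninduced clones.

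*Pde7b*, the second PDE7 gene, rose in WT cells from 3.09, 1.63 and 1.64 to 12.7, 11.4 and 12.5 CPM, a log2 response of 2.54 (adjusted p = 2.6e-08). It had no count in uninduced clone 1, was at 0.426, 0.406 and 0.547 CPM in stimulated clone 1, and did not pass 0.224 CPM in clone 2. With a floor of 3 counts over the group, uninduced clone 1 was at least 38.9-fold lower than WT, and the single count in uninduced clone 2 put WT 172-fold (95% counting interval 30.3 to 6850) above it. In stimulated cells the log2 fold change against WT was -4.72 (adjusted p = 4.43e-12) in clone 1 and -6.85 (adjusted p = 5.68e-13) in clone 2. WT and clone libraries did not overlap in either treatment.

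Phosphodiesterases that act on both cAMP and cGMP included the calcium and calmodulin dependent PDE1 genes, of which *Pde1a* and *Pde1c* went opposite ways. *Pde1a* was at 29.9, 33.9 and 33.6 CPM in uninduced and 43.1, 42.9 and 45.4 CPM in stimulated WT libraries. Clone 1 was at 11.1, 9.92 and 12.1 CPM uninduced and 6.12, 7.19 and 7.65 CPM stimulated, and clone 2 at 0.647, 0.664 and 0.812 CPM uninduced and 1.18, 1.05 and 0.601 CPM stimulated. The 3 genotypes were fully separated in either treatment, in the order WT, clone 1, clone 2. The log2 fold change against WT was -1.55 ± 0.111 (SE; adjusted p = 6.6e-13) in uninduced clone 1 and -5.55 ± 0.157 (SE; adjusted p = 1.52e-22) in uninduced clone 2. Of 7 tested neighbours within 500 kb, 2 were DEGs in both clones in both treatments, *Frzb* lower and *Cerkl* higher. The difference in response between clone 1 and WT was -1.09 (adjusted p = 2.32e-06).

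*Pde1c* had no count in any of the 6 WT libraries. It was at 4.46, 3.86 and 4.19 CPM in uninduced and 3.14, 4.42 and 5.06 CPM in stimulated clone 1, and at 0.335, 0.133 and 0.522 CPM uninduced and 0.336, 0.719 and 0.361 CPM stimulated in clone 2. Against the floor of 3 counts it was at least 87.0-fold higher in uninduced clone 1 than in WT and at least 6.64-fold higher in uninduced clone 2. In stimulated cells the bounds were 93.7-fold and 10.1-fold. Clone 1 was above clone 2, by 3.68 (adjusted p = 9.63e-08) uninduced and 3.16 (adjusted p = 9.57e-07) stimulated on the log2 scale. It was the one member higher in both clones in both treatments, beside 1.72% of all genes.

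The cGMP-inhibited PDE3 genes had their high levels in WT cells. *Pde3a* was at 0.990, 1.47 and 3.20 CPM in uninduced and 1.66, 1.94 and 2.07 CPM in stimulated WT libraries and had no count in any of the 12 KO libraries, which put the clones at least 39.6-fold and 58.3-fold lower uninduced and at least 43.0-fold and 31.5-fold lower stimulated (clone 1 and clone 2). *Pde3b*, the adipocyte form through which insulin counters lipolysis, rose in WT from 5.36, 4.88 and 3.09 to 15.1, 14.0 and 15.4 CPM. That log2 response of 1.75 ± 0.331 (SE; adjusted p = 6.94e-05) was not past the threshold with DESeq2 (adjusted p = 0.0719, with 8.89e-14 to 0.0719 over all alternatives). In the clones *Pde3b* was at 0, 0 and 0.518 CPM uninduced and 0, 0.221 and 0.0455 CPM stimulated in clone 1 and at 0.0223, 0.0886 and 0 CPM uninduced and 0.112, 0.0654 and 0.0601 CPM stimulated in clone 2, all below WT. In stimulated cells its log2 fold change against WT was -7.10 ± 0.533 (SE; adjusted p = 3.41e-11) in clone 1 and -7.43 ± 0.585 (SE; adjusted p = 9.19e-11) in clone 2. None of the 4 tested neighbours of *Pde3b* within 500 kb was a DEG in uninduced clones.

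*Pde10a*, another enzyme with both substrates, separated clone 2 from the rest. It was at 5.59, 7.92 and 7.39 CPM in uninduced and 15.2, 16.2 and 15.2 CPM in stimulated WT libraries, and at 11.4, 11.8 and 12.8 CPM uninduced and 9.90, 12.9 and 11.6 CPM stimulated in clone 1. Clone 2 libraries were at 0.0223, 0.133 and 0 CPM uninduced and 0.784, 0.785 and 0.722 CPM stimulated, below all others. The log2 fold change of clone 1 against clone 2 was 7.82 ± 0.316 (SE; adjusted p = 2.41e-18) uninduced and 3.90 ± 0.222 (SE; adjusted p = 6.27e-15) stimulated. Differences in response from WT had opposite signs, -1.21 (adjusted p = 5.16e-05) in clone 1 and 2.71 (adjusted p = 0.000454) in clone 2. The clone 2 value rests on 1, 3 and 0 counts in uninduced and 14, 12 and 12 counts in stimulated libraries.

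Of the cGMP-specific genes, *Pde5a* was lower in both clones in both treatments. This gene, whose product is the target of sildenafil, was at 43.4, 40.3 and 35.9 CPM in uninduced and 22.5, 25.5 and 20.3 CPM in stimulated WT libraries, at 16.8, 14.6 and 17.1 CPM uninduced and 8.94, 8.70 and 8.56 CPM stimulated in clone 1, and at 13.5, 12.4 and 12.8 CPM uninduced and 7.68, 6.47 and 5.05 CPM stimulated in clone 2. Every clone library was below the WT libraries of its treatment, with log2 fold changes of -1.30 (adjusted p = 4.14e-11) and -1.62 (adjusted p = 2.88e-13) uninduced and -1.38 (adjusted p = 2.47e-11) and -1.83 (adjusted p = 2.6e-13) stimulated. Of 8 tested neighbours of *Pde5a* within 500 kb, 2 were DEGs in each clone in each treatment, and *Synpo2* was among them every time. *Pde9a* went from 19.7, 25.8 and 22.8 to 8.95, 8.72 and 8.07 CPM in WT, from 14.0, 11.5 and 16.8 to 3.41, 2.58 and 3.23 CPM in clone 1, and from 2.50, 3.23 and 2.49 to 0.728, 0.981 and 0.241 CPM in clone 2. It fell in each genotype, with log2 responses of -1.41 (adjusted p = 1.39e-08), -2.21 (adjusted p = 2.08e-11) and -2.07 (adjusted p = 5.65e-07) in WT, clone 1 and clone 2, and clone 2 was the lowest in either treatment. Against WT *Pde9a* was at -0.69 (adjusted p = 0.000559) in uninduced clone 1, under the fold threshold, and at -3.06 (adjusted p = 1.18e-14) in uninduced clone 2. Stimulated it was lower in both, with -1.49 (adjusted p = 7.45e-08) and -3.72 (adjusted p = 2.79e-13). Exonic bases under a gene on the other strand make up 8.34% of *Pde9a* and 7.60% of *Pde8b*, and whether counting used strand is not given in the sources used. The prenyl-binding *Pde6d* was at 27.9, 34.4 and 38.2 CPM in uninduced and 36.3, 35.3 and 35.6 CPM in stimulated WT libraries, ran from 27.9 to 54.7 CPM over all libraries and was a DEG in no comparison.

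Set against WT, 14 of the 37 members were DEGs in uninduced clone 1 (1 higher, 13 lower) and 16 in uninduced clone 2 (2 higher, 14 lower), beside 15.1% (6.32% higher, 8.73% lower) and 15.1% (5.54% higher, 9.56% lower) of all genes. Stimulated, the counts were 18 in clone 1 (5 higher, 13 lower) and 17 in clone 2 (4 higher, 13 lower), beside 19.0% (9.42% higher, 9.60% lower) and 16.9% (7.95% higher, 8.94% lower). On adjusted p alone 27 and 28 members passed uninduced and 26 and 31 stimulated, in clone 1 and clone 2, beside 53.5%, 53.2%, 58.9% and 56.0% of all genes. Both clones were called in 1 direction for 12 members uninduced and 15 stimulated, beside 9.07% and 11.0%. Of these, 11 were lower and 1 higher uninduced, beside 5.78% and 3.28% of all genes, and 11 lower and 4 higher stimulated, beside 5.77% and 5.26%. Among the 15 tested phosphodiesterases, 9 were lower in uninduced clone 1, 11 in uninduced clone 2, 9 in stimulated clone 1 and 10 in stimulated clone 2. Of these 15, 9 passed the filter through some groups alone, *Pde3a*, *Pde3b* and *Pde7b* through WT cells, *Pde1c* through clone 1, and *Pde4a*, *Pde8a*, *Pde8b*, *Pde9a* and *Pde10a* through other sets of groups in which they were high, so the count in 1 direction is partly set by the filter. Of the 6 phosphodiesterases above the filter level in every group, *Pde1a* and *Pde5a* were lower in both clones in both treatments, *Pde4b* changed side with treatment, *Pde4d* was lower in clone 2, and *Pde6d* and *Pde7a* were DEGs in neither clone. Both clones were lower in both treatments for 9 members, *Pde1a*, *Pde3a*, *Pde3b*, *Pde4a*, *Pde5a*, *Pde7b*, *Pde8b*, *Adcy3* and *Akap12*, beside 3.77% of all genes. Of these 9, only *Pde1a*, *Pde5a* and *Akap12* were above the filter level in every group. The others passed through groups in which they were high, so this count too is partly set by the filter. The clone comparisons share their WT libraries.

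**Figure D3:**
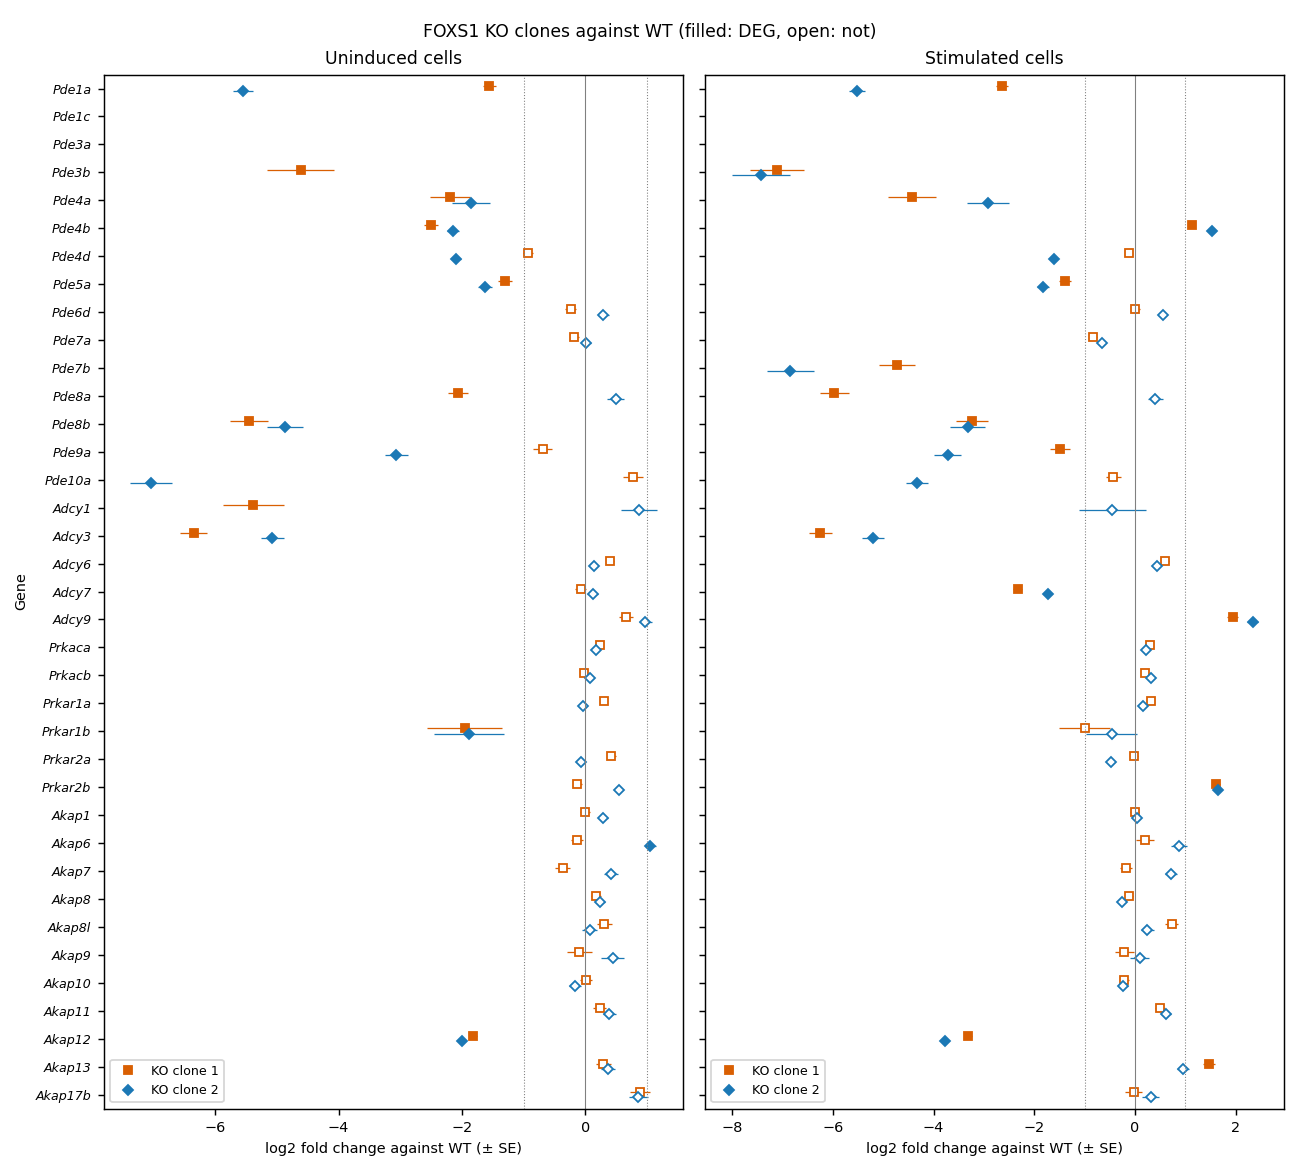
Log2 fold change (± SE) of each clone against WT for the 37 tested members, uninduced on the left and stimulated on the right, filled where the gene was a DEG; dotted lines mark a log2 fold change of 1 in either direction, and 12 values with 3 or fewer counts in a group are left out. Most filled points of the phosphodiesterase rows lie on the lower side, and *Pde4b* and *Adcy9* lie on the higher side in stimulated cells.

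The cyclases summed to 149 to 162 CPM in uninduced WT cells, 134 to 139 CPM in uninduced clone 1 and 132 to 142 CPM in uninduced clone 2. Stimulated, the sums were 198 to 204, 141 to 155 and 157 to 159 CPM. *Adcy7* encodes a cyclase stimulated by G protein beta-gamma subunits and protein kinase C (gene ENSMUSG00000031659, mm10 chromosome 8, 88272403 to 88329962, plus strand). It was at 22.4, 27.3 and 26.6 CPM in uninduced and 98.4, 97.6 and 97.9 CPM in stimulated WT libraries. Clone 1 was at 24.5, 25.7 and 22.4 CPM uninduced and 18.8, 17.8 and 22.0 CPM stimulated, and clone 2 at 28.9, 26.7 and 27.2 CPM uninduced and 31.0, 27.9 and 29.2 CPM stimulated. The stimulated WT libraries stood apart from all others, and uninduced genotypes overlapped. The log2 response was 1.94 ± 0.0831 (SE; adjusted p = 1.92e-18) in WT, -0.31 ± 0.0885 (SE; adjusted p = 0.00337) in clone 1 and 0.09 ± 0.0854 (SE; adjusted p = 0.416) in clone 2, and the difference in response was -2.26 ± 0.121 (SE; adjusted p = 2.36e-15) and -1.86 ± 0.119 (SE; adjusted p = 1.59e-13). Of 7 tested neighbours of *Adcy7* within 500 kb, 1 was a DEG in uninduced clones, *Nkd1*, lower in both.

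*Adcy9*, a widely expressed cyclase with low sensitivity to forskolin, was highest in the stimulated clones. The gene is ENSMUSG00000005580, mm10 chromosome 16, 4287529 to 4420498, minus strand. WT libraries held 10.5, 7.71 and 10.2 CPM uninduced and 9.44, 8.25 and 8.93 CPM stimulated, clone 1 libraries 15.0, 14.2 and 15.8 CPM uninduced and 32.6, 36.4 and 32.9 CPM stimulated, and clone 2 libraries 18.2, 18.2 and 19.7 CPM uninduced and 41.7, 47.9 and 44.9 CPM stimulated. WT libraries overlapped between treatments, while stimulated clones were above uninduced ones and above WT. The log2 response was -0.10 ± 0.114 (SE; adjusted p = 0.471) in WT, 1.18 ± 0.101 (SE; adjusted p = 2.7e-11) in clone 1 and 1.27 ± 0.0979 (SE; adjusted p = 2.6e-12) in clone 2. For this gene the difference in response was 1.28 (adjusted p = 7.03e-08) and 1.37 (adjusted p = 1.71e-08), and stimulated clones exceeded WT by 1.94 (adjusted p = 5.93e-16) and 2.34 (adjusted p = 8.12e-18).

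*Adcy3*, a cyclase known from olfactory neurons, primary cilia and fat, was at 43.2, 41.5 and 40.2 CPM in uninduced and 30.7, 33.1 and 32.1 CPM in stimulated WT libraries. It was at 0.563, 0.322 and 0.621 CPM uninduced and 0.266, 0.221 and 0.774 CPM stimulated in clone 1 and at 1.45, 1.02 and 1.04 CPM uninduced and 0.728, 0.523 and 1.32 CPM stimulated in clone 2, far below WT in both treatments. The log2 fold change against WT was -6.35 ± 0.222 (SE; adjusted p = 2.8e-20) in uninduced clone 1 and -5.07 ± 0.185 (SE; adjusted p = 7.23e-20) in uninduced clone 2. Of its exonic bases 22.1% lie under *Cenpo* on the other strand, which was not a DEG there (log2 0.44, adjusted p = 0.0371 and log2 0.61, adjusted p = 0.00369), nor was any of the 7 tested neighbours within 500 kb. *Adcy1*, a calmodulin-stimulated cyclase of neurons, fell on stimulation in WT from 7.80, 4.14 and 4.12 to 0.0978, 0.389 and 0.406 CPM and in clone 2 from 8.57, 10.8 and 9.86 to 0.336, 0.131 and 0.180 CPM, with log2 responses of -4.11 (adjusted p = 7.86e-10) and -5.43 (adjusted p = 1.17e-11). In clone 1 it did not pass 0.307 CPM. *Adcy6* was at 77.8, 75.3 and 67.2 CPM in uninduced and 59.7, 59.0 and 64.5 CPM in stimulated WT libraries, and was a DEG in no comparison. Its exonic bases lie under a gene on the other strand for 8.92%.

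Of the 6 PKA subunits, *Prkaca*, *Prkacb*, *Prkar1a* and *Prkar2a* were DEGs in none of the 11 comparisons. *Prkar1a* was at 518, 587 and 564 CPM in uninduced and 682, 674 and 697 CPM in stimulated WT libraries, a log2 response of 0.30 ± 0.0436 (SE; adjusted p = 7.92e-07), with 0.30 (adjusted p = 8.97e-07) in clone 1 and 0.48 (adjusted p = 9.53e-11) in clone 2. *Prkaca* went from 108, 114 and 116 to 106, 96.4 and 95.1 CPM in WT, a log2 response of -0.19 (adjusted p = 0.00355). Both passed the test on p at a size under the fold threshold.

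*Prkar2b* differed between genotypes after stimulation. The gene is ENSMUSG00000002997, mm10 chromosome 12, 31958476 to 32061296, minus strand. It was at 88.4, 109 and 94.2 CPM in uninduced and 43.7, 39.3 and 43.0 CPM in stimulated WT libraries. Clone 1 was at 94.5, 88.0 and 84.1 CPM uninduced and 121, 135 and 128 CPM stimulated, and clone 2 at 141, 144 and 140.3 CPM uninduced and 122, 133 and 141 CPM stimulated. Stimulated WT libraries were the lowest of all. The log2 response was -1.21 ± 0.0700 (SE; adjusted p = 2.78e-15) in WT, 0.53 ± 0.0666 (SE; adjusted p = 6.36e-08) in clone 1 and -0.10 ± 0.0655 (SE; adjusted p = 0.201) in clone 2, with differences of 1.74 (adjusted p = 5.4e-15) and 1.11 (adjusted p = 1.23e-10). The neuronal subunit *Prkar1b* was near the filter level, at 0.757, 0.786 and 0.915 CPM in uninduced WT libraries and 0.205, 0.0536 and 0.362 CPM and 0.312, 0.221 and 0.0580 CPM in uninduced clones 1 and 2. It was called lower in both uninduced clones (log2 -1.95, adjusted p = 0.00747 and log2 -1.88, adjusted p = 0.0062), the first of which was lost under alternatives (adjusted p 0.0025 to 0.0605). On stimulation it rose in the clones, by 1.55 (adjusted p = 0.034) and 2.01 (adjusted p = 0.00365), the first again lost under alternatives (adjusted p 0.0156 to 0.155).

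All 11 tested anchoring proteins were above the filter level in every group. *Akap12* binds PKA and PDE4D at the plasma membrane (gene ENSMUSG00000038587, mm10 chromosome 10, 4266380 to 4359470, plus strand). It was at 173, 157 and 173 CPM in uninduced and 111, 119.9 and 109.7 CPM in stimulated WT libraries, at 46.7, 48.9 and 47.1 CPM uninduced and 10.6, 11.1 and 12.5 CPM stimulated in clone 1, and at 40.6, 40.9 and 44.7 CPM uninduced and 8.40, 7.78 and 8.60 CPM stimulated in clone 2. Each genotype was lower when stimulated and each clone was below WT, without overlap. The log2 response was -0.56 ± 0.0599 (SE; adjusted p = 2.23e-09) in WT, under the fold threshold, -2.06 ± 0.0741 (SE; adjusted p = 2.85e-20) in clone 1 and -2.34 ± 0.0808 (SE; adjusted p = 9.07e-21) in clone 2. The difference in response was -1.50 (adjusted p = 1.19e-13) and -1.78 (adjusted p = 1.4e-14), and stimulated clones were -3.32 (adjusted p = 1.41e-25) and -3.78 (adjusted p = 4.56e-26) against WT. None of its 4 tested neighbours within 500 kb was a DEG in uninduced clones.

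*Akap6*, which tethers PKA and PDE4D at the nuclear envelope of muscle cells, had the largest fall among the anchoring proteins. WT libraries went from 50.2, 43.9 and 43.2 to 3.08, 2.46 and 1.80 CPM, clone 1 from 42.2, 44.3 and 38.7 to 2.24, 3.06 and 3.01 CPM and clone 2 from 97.1, 97.6 and 90.8 to 3.81, 4.77 and 4.87 CPM. The log2 responses were -4.23 ± 0.129 (SE; adjusted p = 4.58e-22), -3.89 ± 0.126 (SE; adjusted p = 2.12e-21) and -4.41 ± 0.121 (SE; adjusted p = 3.01e-23), and their differences against WT were 0.33 (adjusted p = 0.214) and -0.19 (adjusted p = 0.531). Uninduced clone 2 was the highest group, at 1.06 (adjusted p = 4.97e-11) against WT. *Akap11* rose from 84.0, 56.9 and 65.9 to 147, 149 and 155 CPM in WT, from 77.7, 81.6 and 84.1 to 184, 224 and 226 CPM in clone 1 and from 94.7, 84.4 and 91.7 to 220.1, 230.3 and 240.2 CPM in clone 2. Its log2 responses were 1.13 (adjusted p = 6.09e-08), 1.38 (adjusted p = 4.65e-09) and 1.35 (adjusted p = 5.27e-09), without overlap between treatments.

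*Akap13*, a scaffold that also activates RhoA, was at 63.6, 51.2 and 58.8 CPM in uninduced and 41.4, 48.6 and 41.1 CPM in stimulated WT libraries, 66.5, 77.0 and 69.4 CPM uninduced and 96.8, 139 and 125 CPM stimulated in clone 1, and 77.7, 66.7 and 79.0 CPM uninduced and 87.2, 85.2 and 80.3 CPM stimulated in clone 2. Stimulated clone 1 was above WT by 1.46 (adjusted p = 3.93e-09), and its response differed from that of WT by 1.17 (adjusted p = 1.95e-05). In clone 2 these values were 0.95 (adjusted p = 1.85e-06) and 0.58 (adjusted p = 0.0112), under the fold threshold. *Akap17b* was called once, lower on stimulation of clone 1, from 9.17, 10.4 and 8.75 to 4.15, 4.54 and 3.55 CPM (log2 -1.20, adjusted p = 2.19e-07). *Akap8* was at 28.7, 31.4 and 31.7 CPM in uninduced and 34.6, 35.6 and 34.0 CPM in stimulated WT libraries, was called in no comparison and ran from 27.1 to 38.3 CPM over all libraries. *Akap1*, *Akap7*, *Akap8l*, *Akap9* and *Akap10* were DEGs in no comparison either.

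**Figure D4:**
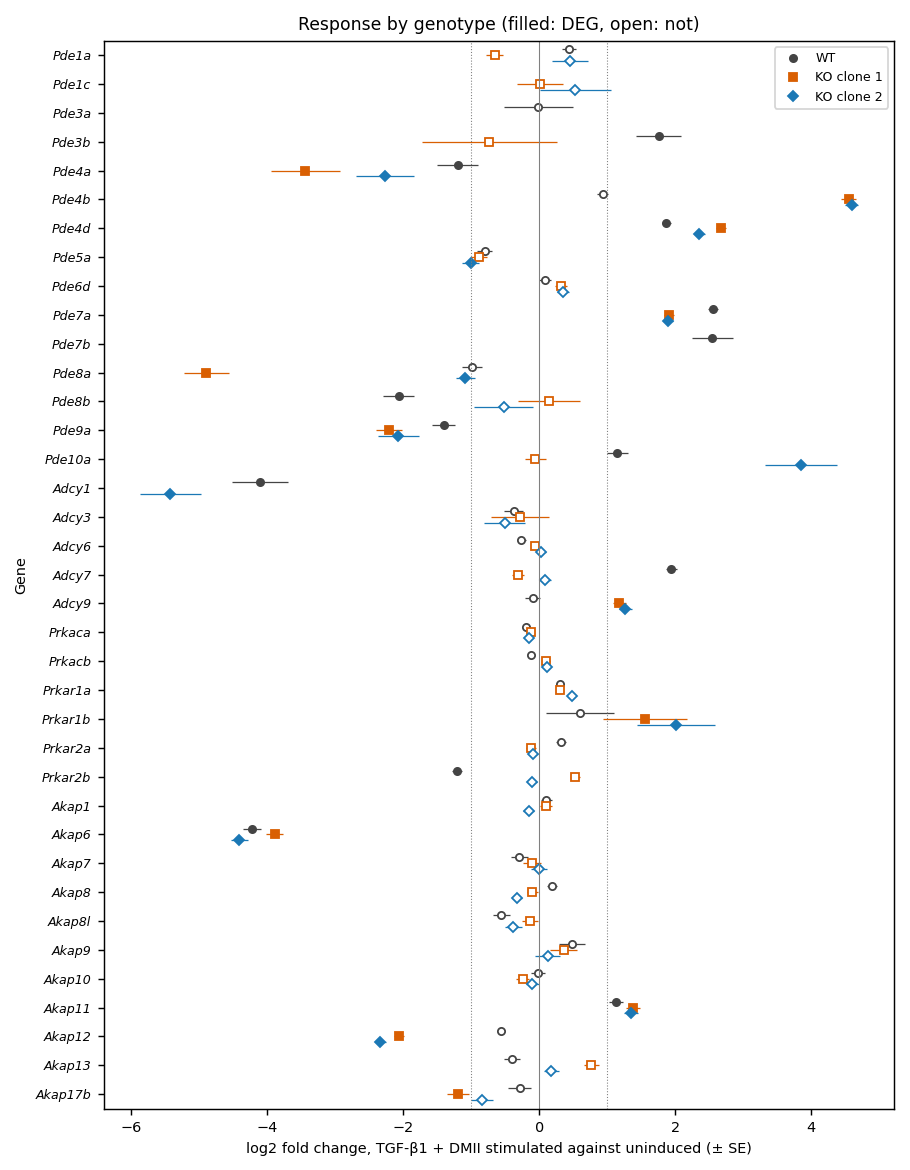
Log2 fold change (± SE) of stimulated against uninduced cells for the 37 tested members in WT (circles), clone 1 (squares) and clone 2 (diamonds), filled where the gene was a DEG; dotted lines mark a log2 fold change of 1 in either direction, and 7 values with 3 or fewer counts in a group are left out. *Pde4b*, *Adcy9* and *Adcy7* have WT and clone points far apart, while those of *Akap6* lie together.

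Responses that differed between genotypes, tested as the difference itself, were called for 11 members in clone 1 (5 higher, 6 lower) and 7 in clone 2 (5 higher, 2 lower), beside 8.81% (5.34% higher, 3.46% lower) and 7.85% (4.89% higher, 2.96% lower) of all genes. On adjusted p alone the counts were 18 and 15, beside 31.6% and 31.2%. Both clones were called in 1 direction for 6 members, beside 4.71%. In both clones the response of *Pde4b*, *Adcy9*, *Pde8b* and *Prkar2b* was higher than in WT, beside 3.12% of all genes, and that of *Adcy7* and *Akap12* lower, beside 1.60%. *Pde1a*, *Pde4a*, *Pde8a* and *Akap13* were called in clone 1 alone, which does not by itself show that the clones differ. Between the clones, 9 members were DEGs uninduced (5 higher and 4 lower in clone 1; background 8.67%, 4.89% higher and 3.78% lower) and 9 stimulated (6 higher and 3 lower; background 9.98%, 5.50% higher and 4.48% lower). On adjusted p alone 22 and 23 passed, beside 42.2% and 45.4%.

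The remaining 19 members did not pass the filter. They were *Pde1b*, *Pde2a*, *Pde4c*, *Pde6a*, *Pde6b*, *Pde6c*, *Pde6g*, *Pde6h*, *Pde11a*, *Adcy2*, *Adcy4*, *Adcy5*, *Adcy8*, *Adcy10*, *Akap2*, *Akap3*, *Akap4*, *Akap5* and *Akap14*. None had more than 17 counts in a library or more than 63 over all 18. *Pde2a*, *Pde6c*, *Adcy2* and *Akap4* had no count. Zero counts leave room for up to 3 counts over the libraries of a group, a limit that covers counting error only. Of the exonic bases of *Akap2* 84.4% lie under *Pakap* and of those of *Pde2a* 64.3% under another gene, so low counts there may depend on how shared reads were assigned, which was not tested.

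Other genes of the pathway were taken by list. The lists were chosen with earlier results of these data known, so counts and medians over them describe the listed genes only. Of 10 cAMP-responsive target genes known from other systems 9 were tested, and 3 rose and 3 fell in WT, 4 rose and 1 fell in clone 1, and 4 rose and 2 fell in clone 2, beside 6.25% and 13.6% of all genes in WT, 5.95% and 10.7% in clone 1, and 6.46% and 11.2% in clone 2. The difference in response was called for 5 of them in each clone, all higher than in WT, beside 5.34% and 4.89% of all genes, and the median difference was 1.41 in clone 1 and 1.29 in clone 2, beside -0.01 and -0.01 over all genes. In each clone 3 of these 5 were the related *Nr4a1*, *Nr4a2* and *Nr4a3*. *Nr4a1*, an orphan nuclear receptor of the immediate early kind, was at 99.5, 118 and 129.9 CPM in uninduced and 36.9, 49.2 and 44.4 CPM in stimulated WT libraries, at 116, 135 and 152 CPM uninduced and 197, 189 and 152 CPM stimulated in clone 1 and at 105, 97.5 and 107 CPM uninduced and 199, 197 and 212 CPM stimulated in clone 2. It fell in WT (log2 -1.41, adjusted p = 3.18e-07), while the log2 response was 0.41 (adjusted p = 0.0119) in clone 1 and 0.97 (adjusted p = 1.1e-05) in clone 2, with differences of 1.83 (adjusted p = 1.88e-06) and 2.39 (adjusted p = 1.13e-07). Its relatives *Nr4a2* and *Nr4a3* had differences of 1.50 (adjusted p = 4.87e-06) and 1.37 (adjusted p = 1.33e-05), and of 2.63 (adjusted p = 8.99e-08) and 2.49 (adjusted p = 1.41e-07). These differences go with lower uninduced clones. Uninduced, *Nr4a2* was at 7.81 to 10.4 CPM in WT and 2.90 to 4.58 CPM in the clones. *Nr4a3* was then at 2.33 to 2.93 CPM in WT and 0.174 to 0.512 CPM in the clones. Stimulated libraries of the 3 genotypes overlapped, at 9.98 to 14.8 CPM for *Nr4a2* and 10.9 to 15.9 CPM for *Nr4a3*. *Rgs2*, which shortens G protein signalling, was at 99.9, 95.8 and 96.5 CPM in stimulated WT libraries against 416, 463 and 444 CPM and 338, 325 and 354 CPM in stimulated clones 1 and 2. It rose in all 3 genotypes, by 1.33 (adjusted p = 3.64e-18), 3.44 (adjusted p = 6.57e-28) and 2.61 (adjusted p = 1.12e-25). *Fos*, an immediate early transcription factor, fell in WT (log2 -2.15, adjusted p = 1.55e-09) and clone 2 (log2 -1.34, adjusted p = 3.54e-07), with -0.99 (adjusted p = 7.63e-06) in clone 1, just under the fold threshold.

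Of 11 nuclear regulators of cAMP transcription, all tested, 1 was a DEG in the WT response, 2 in that of clone 1 and 2 in that of clone 2. These are shares of 9.09%, 18.2% and 18.2%, below or near the 19.9%, 16.7% and 17.7% of all genes. *Sik1*, a salt-inducible kinase that restrains the CREB coactivators, fell in WT from 81.2, 70.0 and 77.3 to 28.6, 32.5 and 29.6 CPM (log2 -1.33, adjusted p = 1.52e-14) and rose in clone 1 from 50.0, 60.1 and 48.5 to 119, 137 and 137 CPM (log2 1.31, adjusted p = 8.96e-15). In clone 2 it was at 42.2, 48.6 and 47.1 CPM uninduced and 60.9, 56.2 and 59.2 CPM stimulated (log2 0.36, adjusted p = 0.000331). Its relative *Sik2* was at 30.3, 32.2 and 33.7 CPM in stimulated WT and at 117, 129 and 136 CPM and 73.1, 86.8 and 83.9 CPM in stimulated clones 1 and 2. Its differences in response were 2.38 (adjusted p = 2.21e-15) and 1.99 (adjusted p = 1.59e-13), and 15.0% of its exonic bases lie under a gene on the other strand.

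**Figure D5:**
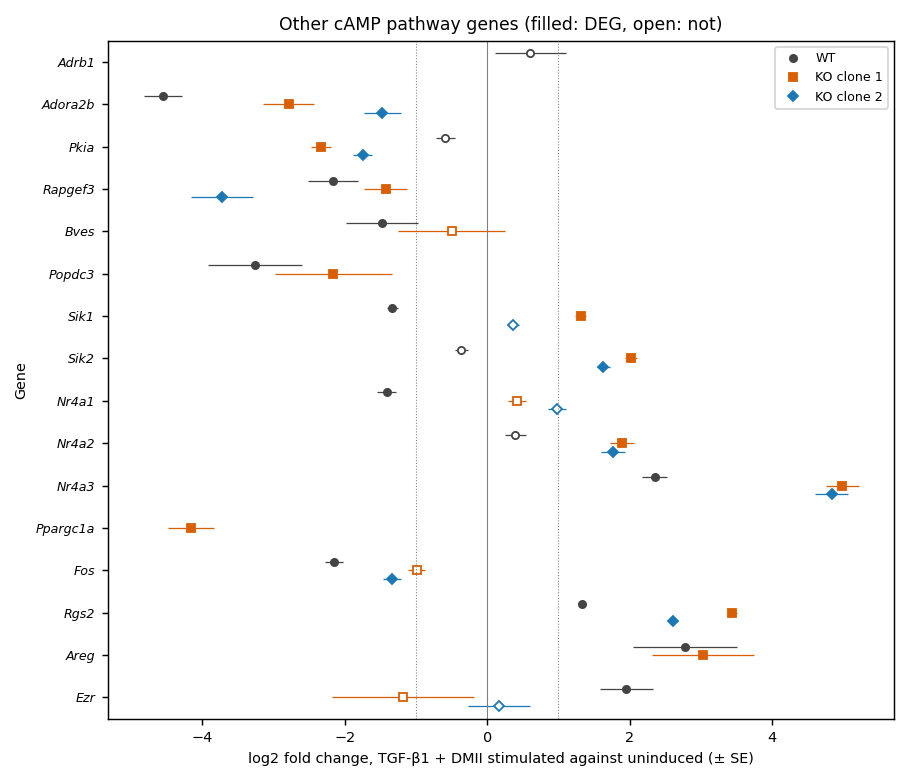
Log2 fold change (± SE) of stimulated against uninduced cells for 16 other genes of the pathway in WT (circles), clone 1 (squares) and clone 2 (diamonds), filled where the gene was a DEG; 7 values with 3 or fewer counts in a group are left out. The *Sik1*, *Sik2* and *Nr4a* rows have their clone points to the right of WT.

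Among 10 tested receptors and G proteins of 12 listed, 4 were DEGs in the WT response, 2 in clone 1 and 3 in clone 2, beside 19.9%, 16.7% and 17.7% of all genes, so that the share in clone 1 was near the background. *Adora2b*, a cAMP-raising adenosine receptor, fell in WT from 13.5, 12.7 and 11.9 to 0.587, 0.518 and 0.496 CPM, a log2 response of -4.56 ± 0.269 (SE; adjusted p = 4.41e-15), and in the clones, which began lower, with -2.79 (adjusted p = 1.07e-07) and -1.47 (adjusted p = 1.42e-05). *Adrb1*, the beta-1 receptor, had no count in clone 1, which was against WT at least 23.9-fold lower uninduced and 43.0-fold lower stimulated. Among 7 tested of 9 kinase inhibitors and other cAMP effectors, 3, 3 and 2 were DEGs in the responses of WT, clone 1 and clone 2, each of them lower in stimulated cells, beside 13.6%, 10.7% and 11.2% of all genes. *Pkia*, a peptide inhibitor of PKA, was at 15.4, 18.03 and 15.6 CPM uninduced and 10.3, 10.5 and 11.7 CPM stimulated in WT and fell in clone 1 from 22.9, 23.3 and 26.3 to 4.53, 5.68 and 4.05 CPM and in clone 2 from 19.99, 23.4 and 20.9 to 7.34, 6.80 and 4.87 CPM, with differences in response of -1.75 (adjusted p = 1.15e-08) and -1.16 (adjusted p = 1.33e-05). *Rapgef3*, the cAMP-activated exchange factor EPAC1, fell in all 3 genotypes, with log2 responses of -2.17 (adjusted p = 3.88e-06), -1.43 (adjusted p = 0.00018) and -3.73 (adjusted p = 1.53e-08). The cAMP-binding *Bves* and *Popdc3* fell in WT (log2 -1.48, adjusted p = 0.0132 and log2 -3.26, adjusted p = 0.000118) and were lower than WT in both uninduced clones. Of 3 tested anchoring proteins without an Akap symbol, *Ezr* was the one called in the WT response, rising from 2.97, 2.36 and 1.68 to 9.88, 9.16 and 7.85 CPM, and it was lower than WT in both stimulated clones (log2 -6.82, adjusted p = 8.31e-11 and log2 -2.77, adjusted p = 1.28e-06). *Ppargc1a*, a coactivator induced by cAMP in brown fat, was at 6.56, 7.08 and 8.44 CPM and 6.49, 6.07 and 5.57 CPM in uninduced clones 1 and 2 and at 0.175, 0.262 and 0.343 CPM in uninduced WT libraries, with log2 fold changes against WT of 4.74 (adjusted p = 5.48e-12) and 4.46 (adjusted p = 1.92e-11). Unlike the targets that rose, it fell on stimulation in all 3 genotypes, to no count in WT (at least 5.97-fold lower), to 0.213, 0.590 and 0.364 CPM in clone 1 (log2 -4.16, adjusted p = 1.28e-11) and to 0.112, 0 and 0.0601 CPM in clone 2, a ratio of 103-fold (95% counting interval 34.9 to 499.6). *Areg*, a growth factor induced by cAMP, was at most at 0.191 CPM in uninduced libraries. Stimulated, it was at 0.782, 0.216 and 1.35 CPM in WT, at 1.12, 0.959 and 1.05 CPM in clone 1, within the WT range, and at 3.25, 2.29 and 3.67 CPM in clone 2.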

How the data were processed

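Poly(A) RNA of 10T1/2 cells was sequenced in 18 libraries (6 groups of 3). The deposited counts per gene are raw. Per the labels' processing notes reads were aligned with HISAT2 to mm10, and the authors counted reads per gene. Not given in the sources used here are the counting program, the annotation release and whether counting used strand. Coordinates, lengths and symbols came from the deposited table, and overlaps and neighbours from GENCODE M21, whose coordinates were the same for 52 of the 56 members.

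Counts were analysed with edgeR 4.0.16 in R 4.3.3. Genes were filtered with filterByExpr (minimum count 10), which left 14317, and scaled with TMM. A separate mean was fitted per group (glmQLFit with robust estimation), contrasts were tested by glmQLFTest and p-values adjusted after Benjamini and Hochberg. A DEG had to pass 0.05 on the adjusted p and 1 on the absolute log2 scale. CPM used TMM-scaled totals, and FPKM divided it by the table's gene length. The authors' paper used DESeq2, and DESeq2 1.42.0 was an alternative here. The others were no fold threshold, DESeq2 size factors, another filter or none, only the groups compared, a replicate block and leaving out each library. Depth was 15576685 to 42005596 counts per library. Where a group had no count, folds were bounds from 3 counts over the group.

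The members and gene lists were chosen with earlier results of these data known. Members were described by library where they were DEGs in a response with a mean of at least 1 CPM, DEGs in both clones in 1 direction, different in response, or among the 2 highest of their role in uninduced WT cells. Other pathway genes were named if called in at least 2 of the 3 responses or in 1 direction in both stimulated clones. A pathway gene that met this rule is not reported here. Procedures were tested on simulated data. Figures were drawn with matplotlib 3.10.9.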

Additional observations from a re-analysis of the deposited data

Results flagged for a closer look

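A difference in response to TGF-β1 + DMII between a KO clone and WT, tested as an interaction, marked 18 results over 11 members. Values are log2 differences, positive where the log2 response of the clone was above that of WT. This includes a fall in WT that was smaller or absent in the clone. *Pde4b* was at 3.62 in clone 1 and 3.67 in clone 2, with the clones below WT before and above it after stimulation. *Adcy9* was at 1.28 and 1.37, *Prkar2b* at 1.74 and 1.11, and *Pde8b* at 2.21 and 1.54. The last rests on a gene at the filter level in the clones. *Adcy7* was at -2.26 and -1.86, and *Akap12* at -1.50 and -1.78. *Pde10a* had opposite signs, -1.21 in clone 1 and 2.71 in clone 2, where uninduced libraries held at most 3 counts. In clone 1 the difference was -3.91 for *Pde8a*, -2.24 for *Pde4a*, -1.09 for *Pde1a* and 1.17 for *Akap13*, which were not called in clone 2. *Pde8a* and *Pde4a* had at most 5 and 9 counts in a stimulated clone 1 library. Groups of 3 libraries were too small for a test of single outlying libraries.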

How the results depend on the processing

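Counts of called members kept within 1.5 times of those reported with DESeq2, with DESeq2 size factors, without the filter, with a filter of 1 CPM in 3 libraries and with the compared groups alone. Without the fold threshold 28 members were called in the response of WT, 22 in that of clone 1, 27 and 28 in uninduced clones 1 and 2 against WT, 31 in stimulated clone 2 against WT, 18 and 15 for the differences in response of clones 1 and 2, and 22 and 23 between the clones uninduced and stimulated. Leaving out single libraries gave 13 to 14 called members in the response of WT, 12 to 13 in clone 1 and 13 to 15 in clone 2. It gave 14 in uninduced clone 1, 16 to 18 in uninduced clone 2, 18 in stimulated clone 1 and 17 to 18 in stimulated clone 2 against WT. The differences in response then gave 11 to 13 and 6 to 7, and the clones compared with each other 9 to 10 uninduced and 7 to 9 stimulated. Of 330 values of the 30 members described by library, 141 were called and 132 of these kept call and direction throughout. The 9 calls lost at least once were *Pde3b* in the response of WT, *Pde5a* and *Pde8a* in the response of clone 2, *Prkar1b* in the response of clone 1 and in uninduced clone 1 against WT, *Pde8b* in the difference in response of clone 2, and *Adcy1*, *Adcy3* and *Pde7b* between the stimulated clones. The cause was not tested, and no value reversed. The order of members by FPKM within a role was the same with raw library totals. With exonic bases of GENCODE as length, chosen after seeing the data, the 4 highest members by role in uninduced WT cells kept value and place, while *Akap8* and *Akap8l* went from places 2 and 4 to places 4 and 8 among anchoring proteins. The replicate block gave the same counts as the fit without it (13, 13, 14, 14, 16, 18, 17, 11, 7, 9 and 9 in the order of the comparisons) and changed no call. Libraries sharing a replicate number did not deviate together (0 of 45 pairs with r over 0.1, range -0.0412 to 0.0498), and 4 of 18 libraries correlated best with their own number. No pairing by number was thus seen. A shared culture or day with a small effect could have been missed. Depth limits members under about 0.5 CPM, whose folds rest on few counts.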
